A study of Mus musculus with 272 samples.

Results

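The G1 cyclins Ccnd1, Ccnd2, Ccnd3, Ccne1 and Ccne2, the kinases Cdk2, Cdk4 and Cdk6 and the inhibitors Cdkn1a and Cdkn1b were followed through mouse oocyte maturation and preimplantation development. They were listed by name and not by a threshold on a measured value, though with earlier results of these data known. All 10 were present among 15771 genes of the deposited table. In the cell cycle, D-type cyclins bind Cdk4 or Cdk6 and E-type cyclins bind Cdk2, and these kinases phosphorylate the retinoblastoma family of pocket proteins, which releases E2F transcription factors and the genes of S-phase entry. Cdkn1a (p21) and Cdkn1b (p27) bind and inhibit such complexes, and Cdkn1a is a target of the p53 pathway. Early mouse embryos divide without growing, and fully grown oocytes are arrested in meiosis and carry a store of maternal transcripts that is replaced as the embryonic genome becomes active.

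The groups were germinal vesicle (GV) oocytes, which are immature, MII oocytes, which are mature and arrested in the second meiotic metaphase, zygotes, 2-cell, 4-cell and 8-cell embryos, morulae and blastocysts. The labels gave no strain, age or treatment that differed between groups. For each stage, 4 pools of 20 oocytes or embryos gave whole transcriptomes, and 3 lysates of about 100 made with cycloheximide, which holds ribosomes on their transcripts, were spun through sucrose gradients and cut into 10 fractions. All libraries were amplified by Smart-seq chemistry from poly(A) RNA, and a human HEK293 sample run in parallel monitored the fractionation. Fractions 6 to 10 are called heavy here and 1 to 5 light, by the convention that polysomes sediment towards the heavy end; the labels do not say which fraction holds polysomes. Nothing in the labels says that the pools or gradients of a stage came from separate animals or collections, so the p-values measure the spread between these samples, which may be technical.

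The deposited CPM (read counts scaled to a common library total) came back as whole reads in all 272 libraries. The 32 transcriptomes held 11.2 to 24.3 M reads and the 240 fraction libraries 0.0102 to 43.2 M, with a minimum of 0.996 M once fraction 1 was left aside. The stage labels were checked against marker genes: the 7 oocyte markers summed to between 18119 and 20805 CPM in GV oocytes and to between 11.0 and 19.3 in blastocysts, the 5 markers of 2-cell embryos to between 16242 and 21398 CPM in 2-cell and between 15.6 and 32.4 in 4-cell embryos, and the 6 trophectoderm markers to between 2209 and 2844 CPM in blastocysts. Of the 11 markers of cumulus and granulosa cells, which surround the oocyte, 4 were in the table and summed to between 38.4 and 45.8 CPM in GV oocytes, with Amhr2 at 0 there; of 5 sperm markers, 1 was in the table, at 4.61 to 8.70 CPM in zygotes and already at 14.1 to 19.3 in GV oocytes. The part of such cells in the results was not tested. A pool is a bulk sample, so fewer cells of a kind and less RNA per cell cannot be told apart, and because each library is scaled to its own total a CPM is a share of the library and not an amount per embryo. The libraries start from poly(A) RNA, so a CPM counts transcripts captured by their tail. The part of tail length in the steps between oocytes and zygotes was not tested.

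Promoter sequence is shown for Ccne1, Cdk2 and Cdkn1a, an E-type cyclin, its kinase and an inhibitor of that pair, which were among the members that rose at the 2-cell stage. RefSeq (GRCm38.p6) windows of 250 bases before the annotated start were matched by symbol for 7 of the 10 members, 9 windows in all. Capitals mark matches, on either strand, to GGGCGG, the core of an Sp1-type site, to CCAAT, or to the E2F-type words TTTGGCGC, TTTCCCGC, TTTGCCGC, TTTCGCGC and GGCGGGAA, the last of which can share bases with GGGCGG. The window of Ccne1 is chr7:38107491-38107740 on the minus strand, that of Cdk2 chr10:128705052-128705301 on the minus strand, and the downstream of the pair for Cdkn1a chr17:29093519-29093768 on the plus strand.
Ccne1: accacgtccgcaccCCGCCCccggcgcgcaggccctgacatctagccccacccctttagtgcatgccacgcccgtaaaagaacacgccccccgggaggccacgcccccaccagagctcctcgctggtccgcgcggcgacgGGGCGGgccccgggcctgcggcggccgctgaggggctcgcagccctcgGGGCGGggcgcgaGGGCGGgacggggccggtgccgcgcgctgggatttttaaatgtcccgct
Cdk2: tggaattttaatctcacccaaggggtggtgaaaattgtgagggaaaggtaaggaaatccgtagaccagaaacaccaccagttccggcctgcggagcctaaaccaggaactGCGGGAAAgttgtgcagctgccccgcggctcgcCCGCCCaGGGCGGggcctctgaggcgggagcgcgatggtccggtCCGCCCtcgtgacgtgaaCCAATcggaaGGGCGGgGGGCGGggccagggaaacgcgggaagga
Cdkn1a: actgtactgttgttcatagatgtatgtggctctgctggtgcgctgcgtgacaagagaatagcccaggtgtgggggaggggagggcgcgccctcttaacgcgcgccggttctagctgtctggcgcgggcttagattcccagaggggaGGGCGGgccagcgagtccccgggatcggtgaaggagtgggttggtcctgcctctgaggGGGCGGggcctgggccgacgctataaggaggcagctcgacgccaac
Ccne1 held 4 GGGCGG words, Cdk2 held 5 with 1 CCAAT, and Cdkn1a held 2. The E2F-type word in Cdk2, which begins 140 bases before the start, was the one match to an E2F-type word in the 9 windows of the members. Of 32851 windows of the same length, 3.24% held an E2F-type word, 32.7% GGGCGG and 33.8% CCAAT. A match describes letters only, and a window without one says nothing of the factor.

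In the transcriptome, the E-type cyclin Ccne1, the kinase Cdk2 and the inhibitor Cdkn1a were near the bottom of the range in oocytes and zygotes and rose at the 2-cell stage, Cdk4 rose mainly from 2 to 4 cells, Ccnd3 rose in steps to the blastocyst, and Ccne2 went the other way after the 2-cell stage. The changes between consecutive stages were tested with limma on log2(CPM + 1), so that changes of low genes are understated, with p-values adjusted over 14642 genes and a change called at an adjusted p under 0.05 and a size of at least 1. Of 70 member tests, 21 were called. From GV to MII oocytes, 1 member was higher, beside 9.11% of all genes, and 2 were lower, beside 25.3%. From MII oocyte to zygote 1 was higher, beside 5.79%, and 2 lower, beside 4.48%. From zygote to 2-cell embryo 6 were higher, beside 25.2%, with a median change over the 10 of 1.43 against 0.37 for all genes. From 2 to 4 cells 4 were higher and 2 lower, beside 31.8% and 32.9%. From 4 to 8 cells no member was called by limma or by edgeR, and none had an unadjusted p under 0.05, beside 2.6% of genes called either way. From 8 cells to morula 1 was higher, beside 8.18%, and from morula to blastocyst 2, beside 18.8%. Quantile normalization moved the median of all genes from 0.37 to -0.08 in the step from zygote to 2-cell embryo and from -0.11 to 0.16 in that from GV to MII; there Cdk4 rose by 1.03 in place of 1.72 and Cdk2 fell by 1.29 in place of 1.98, both still called.

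**Figure D1:**
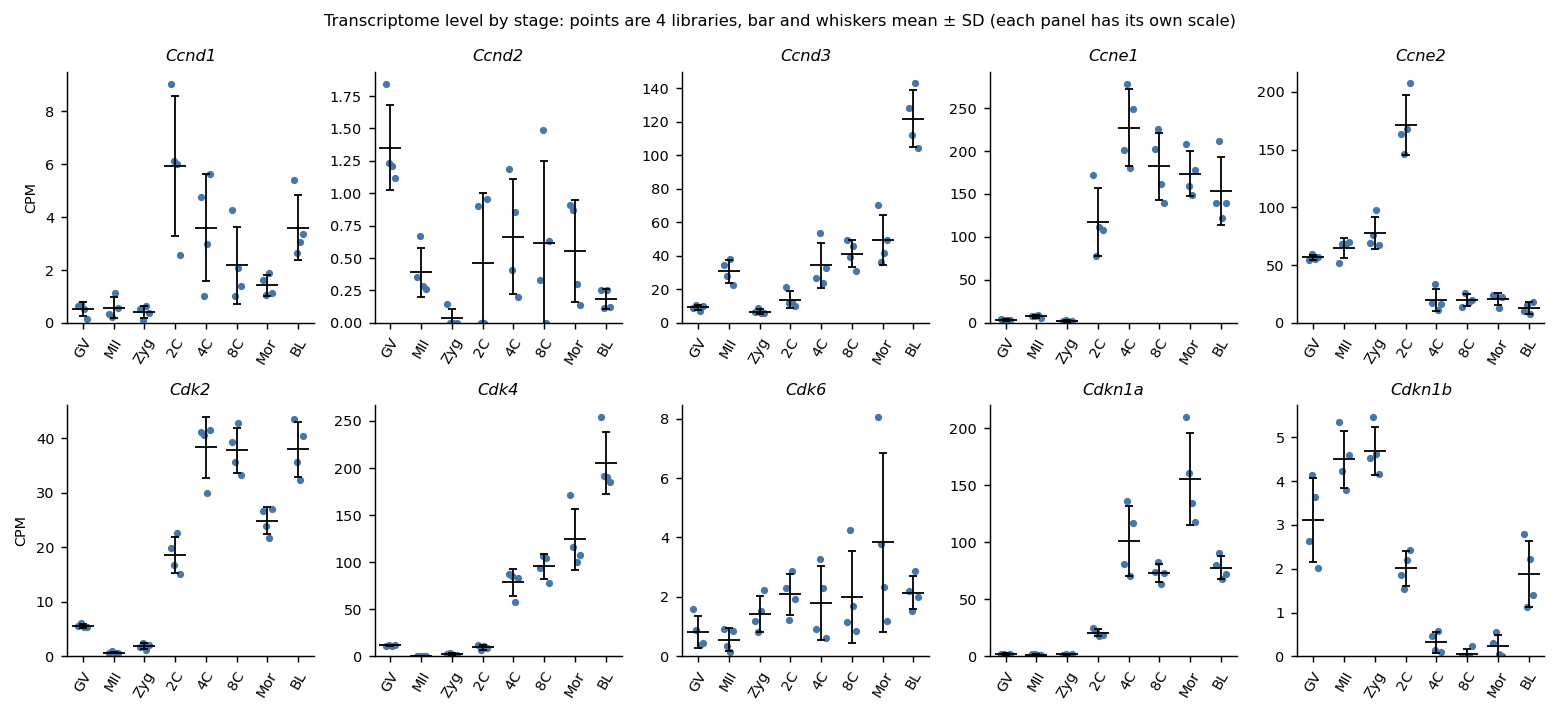
Transcriptome level of each member in CPM (vertical axes, each with its own scale) over the 8 stages from GV oocyte to blastocyst (BL); points are the 4 libraries of a stage, the bar is the mean and the whiskers are 1 SD. Ccne1, Cdk2 and Cdkn1a lie higher from the 2-cell stage on than in any earlier stage, Ccne2 peaks there at 171.0 CPM, and Cdk4 and Ccnd3 are highest in blastocysts.

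Ccnd3 was the D-type cyclin with the most transcript. Its 4 libraries stood at 8.61, 10.8, 7.35 and 10.3 CPM in GV oocytes and at 34.3, 27.8, 38.1 and 22.5 in MII oocytes. In zygotes they stood at 6.46, 8.72, 5.72 and 5.67 CPM. The MII values lay above both neighbours without overlap, and Ccnd3 rose by 1.61 (SE 0.23, adjusted p = 2.8e-07) into MII and fell by 2.04 (SE 0.23, adjusted p = 1.7e-08) out of it. Later it stood at 13.9 ± 5.09 (SD, n = 4) CPM in 2-cell, 34.3 ± 13.5 in 4-cell and 41.4 ± 8.18 in 8-cell embryos and at 49.4 ± 14.9 in morulae. The step from 2 to 4 cells was called (1.23, SE 0.23, adjusted p = 1.4e-05), but without the 4-cell library at 53.8 CPM it was 0.99, under the size threshold. Blastocysts, at 128, 112, 143 and 104 CPM, lay above every other stage, and the step from morula was 1.32 (SE 0.23, adjusted p = 1.4e-05).

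Ccnd1, the D-type cyclin that responds to mitogens in many cells, was at most 1.13 CPM in any library of GV oocytes, MII oocytes and zygotes. In 2-cell embryos its libraries stood at 9.05, 6.13, 6.01 and 2.58 CPM, all above the zygotes, and it rose by 2.22 (SE 0.31, adjusted p = 1.4e-07). From 4-cell embryos on, its stage means lay between 1.43 and 3.61 CPM, and in the order of the means every stage overlapped its neighbour. Its blastocysts, at 5.40, 2.63, 3.04 and 3.36 CPM, lay above all morulae, at 1.62, 1.07, 1.89 and 1.13, a difference of 2.53 times. That step was 0.90 on the log2 scale with an adjusted p of 0.014, under the size threshold, and 1.01, which was called, without the blastocyst library at 2.63 CPM. Ccnd2 was low throughout, though above Ccnd1 in GV oocytes: it stood at 1.84, 1.24, 1.21 and 1.12 CPM in GV oocytes, 0.391 ± 0.189 in MII oocytes, and 0.148, 0, 0 and 0 in zygotes, which is 3 reads in all and at the detection floor. No change of Ccnd2 reached the size threshold in limma with the pseudocount of 1. With a pseudocount of 0.1 its step from MII to zygote was called (-1.90, adjusted p = 0.049), and edgeR called its step from zygote to 2-cell embryo, where the libraries stood at 0.898, 0, 0 and 0.957 CPM.

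The E-type cyclins exchanged places. Ccne1 stood at 4.93, 3.64, 3.03 and 2.92 CPM in GV oocytes, 7.45, 7.64, 9.01 and 5.76 in MII oocytes and 1.82, 3.79, 1.52 and 2.28 in zygotes. In 2-cell embryos it stood at 171.9, 78.0, 112.1 and 107.9 CPM, 49.9 times the zygote mean with no overlap, a rise of 5.13 (SE 0.22, adjusted p = 9e-21) that was the largest among the members in any transcriptome step. It fell by 1.37 from MII to zygote (SE 0.22, adjusted p = 8e-06); its step from GV to MII, 0.88, was under the size threshold but reached 1.57 after quantile normalization and 1.36 in edgeR, where it was called. From 4 cells to blastocyst its means ran from 226.9 ± 44.7 to 153.4 ± 40.0 CPM with overlap between neighbours.

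Ccne2, which activates the same kinase, was an abundant maternal transcript, at 56.7 ± 2.02 CPM in GV oocytes and 77.6 ± 14.1 in zygotes. Its 2-cell libraries stood at 163, 146, 168 and 207 CPM, above all others, and the rise from zygote was 1.13 (SE 0.25, adjusted p = 0.00016); edgeR gave 0.82, under the size threshold. In 4-cell embryos it stood at 16.8, 33.9, 11.4 and 16.7 CPM, 8.69 times less, and it fell by 3.15 (SE 0.25, adjusted p = 4.6e-14). It then stayed between 12.9 and 20.4 CPM in the stage means.

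Per length (CPM per kb of exon), Ccne2 made up 96.1% ± 1.74 (SD, n = 4) of the 2 E-type cyclins in zygotes, 53.4% ± 8.07 in 2-cell and 5.98% ± 1.78 in 4-cell embryos, with no overlap between these stages. The summed E-type level per kb was 23.1 ± 3.93 in zygotes and 93.1 ± 17.0 in 2-cell embryos and kept to between 61.3 and 90.9 in the later stage means. Of the D-type cyclins, Ccnd3 made up 80.5% ± 6.06 in GV oocytes and 94.6% ± 1.58 in blastocysts, and its share was lowest in 2-cell embryos, at 55.5% ± 6.11, where Ccnd1 made up 42.6% ± 8.72. Ccnd2 was above 5% of the D-type sum on average only in GV oocytes, at 11.1% ± 2.89.

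**Figure D2:**
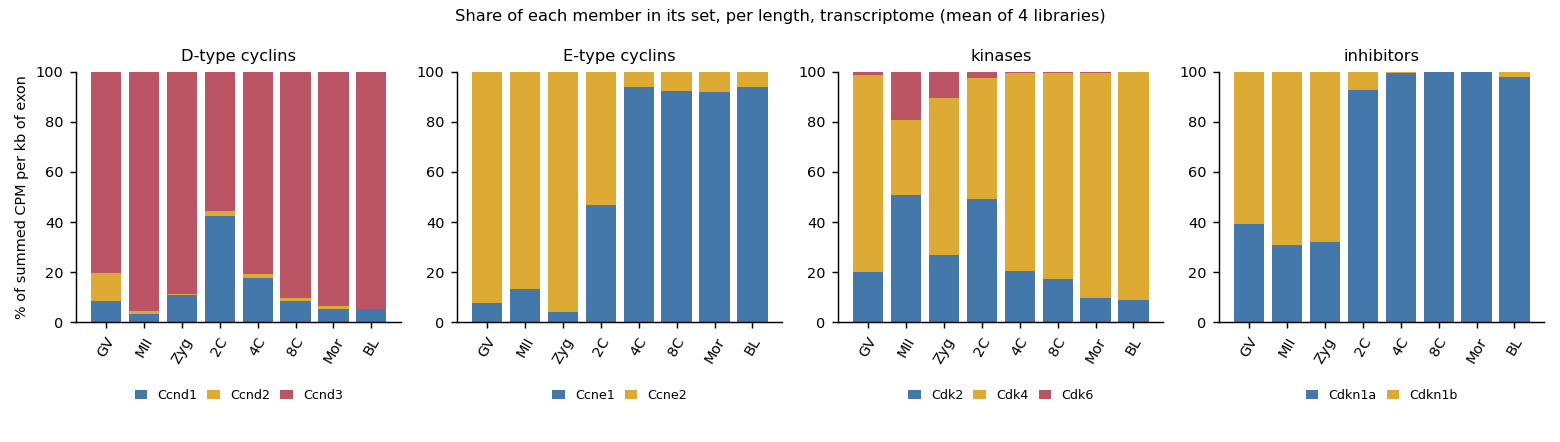
Share of each member in the summed CPM per kb of its set (vertical axis, %, mean of 4 transcriptome libraries) at the 8 stages, for D-type cyclins, E-type cyclins, kinases and inhibitors. The E-type set passes from Ccne2 (96.1% in zygotes) to Ccne1 (94.0% in 4-cell embryos), and the inhibitor set from mostly Cdkn1b to mostly Cdkn1a.

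Cdk4, the kinase of the D-type cyclins, had the widest swing of the kinases. It stood at 10.8, 12.3, 11.0 and 12.2 CPM in GV oocytes and at 0, 0.223, 0.328 and 0.423 in MII oocytes, where a library held 0 to 8 of its reads. It fell by 3.35 (SE 0.20, adjusted p = 7.8e-17), and a fold of these few reads is not given. Zygotes stood at 2.32, 3.37, 1.52 and 1.72 CPM, a rise of 1.36 (SE 0.20, adjusted p = 1.8e-06), and 2-cell embryos at 12.3, 6.59, 11.0 and 8.69, a rise of 1.72 (SE 0.20, adjusted p = 2.8e-09). The 2-cell values overlapped those of GV oocytes and lay above those of zygotes. In 4-cell embryos it stood at 87.7, 85.2, 57.6 and 83.5 CPM, 8.14 times more, a rise of 2.91 (SE 0.20, adjusted p = 1.2e-15). Blastocysts, at 253.9, 191.2, 190.9 and 185 CPM, lay above morulae, at 124.1 ± 32.4, but that step of 0.74 was under the size threshold.

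Cdk2, the kinase of the E-type cyclins, stood at 5.63 ± 0.384 CPM in GV oocytes, 0.570, 0.892, 0.657 and 0.634 in MII oocytes, and 1.82 ± 0.540 in zygotes. It fell by 1.98 (SE 0.17, adjusted p = 2.5e-12) into MII. In 2-cell embryos it stood at 19.8, 16.8, 22.6 and 15.2 CPM, 10.2 times the zygote mean and above all of the earlier libraries, a rise of 2.80 (SE 0.17, adjusted p = 2.7e-16). The next step, to 41.1, 40.6, 30.0 and 41.5 CPM, was at the size threshold (1.01, SE 0.17, adjusted p = 2.2e-06): edgeR gave 0.90, and leaving out 1 of the 2-cell libraries at 16.8 and 15.2 or the 4-cell libraries at 41.1, 40.6 and 41.5 CPM gave 0.92 to 0.97. Cdk6, the other D-type kinase, had stage means between 0.560 and 3.83 CPM and no called step; its highest library, 8.05 CPM, and its lowest in the same stage, 1.18, were both morulae. Per length, Cdk4 made up 78.7% ± 1.73 of the kinase sum in GV oocytes, 48.3% ± 4.82 in 2-cell embryos and 90.9% ± 0.946 in blastocysts, and the kinase sum itself was 0.226 ± 0.0557 CPM per kb in MII oocytes against 4.53 ± 0.259 in GV oocytes.

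Cdkn1a stood at 1.23, 2.04, 1.46 and 2.33 CPM in zygotes, 24.6, 22.1, 17.7 and 18.6 in 2-cell embryos and 81.0, 136, 70.6 and 117 in 4-cell embryos, with no overlap between the 3 stages. It rose by 2.98 (SE 0.23, adjusted p = 1.6e-13) and then by 2.19 (SE 0.23, adjusted p = 9.9e-11). Morulae, at 209.5, 161, 135 and 118 CPM, lay above 8-cell embryos, at 73.2 ± 7.94, and the step was called at 1.05 (SE 0.23, adjusted p = 0.00062). That call is at the threshold: it was 0.99 after quantile normalization, in edgeR and without the 8-cell library at 63.4 CPM, and 0.90 without the morula library at 209.5. Blastocysts were back at 77.8 ± 9.75 CPM, a step of -0.97 that edgeR (-1.26) and quantile normalization (-1.07) called.

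Cdkn1b was a maternal transcript at low level, 3.11 ± 0.961 CPM in GV oocytes and 4.69 ± 0.543 in zygotes. It was 2.01 ± 0.393 CPM in 2-cell embryos, and 0.464, 0.137, 0.589 and 0.101 in 4-cell embryos, below all 2-cell libraries, a fall of 1.19 (SE 0.20, adjusted p = 2.2e-06). Quantile normalization gave -0.67 for that step and -1.86 for the step before it, so that the call moved from the later to the earlier step. The 8-cell libraries stood at 0, 0, 0 and 0.231 CPM, the last from 4 reads. Morulae stood at 0.304, 0.555, 0.0498 and 0 CPM, where a library held 0 to 14 of its reads. In blastocysts it stood at 2.79, 1.12, 2.21 and 1.40 CPM, above all morulae. The rise was 1.22 (SE 0.20, adjusted p = 5.7e-06), and 0.90 after quantile normalization, which was not called. Per length, Cdkn1a made up 32.2% ± 6.92 of the inhibitor pair in zygotes, 92.8% ± 2.16 in 2-cell and 99.7% ± 0.286 in 4-cell embryos.

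Over the 8 stage means of log2(CPM + 1), Pearson's r between members was 0.96 for Ccne1 and Cdkn1a, 0.94 for Cdk2 and Cdk4, -0.56 for Ccne1 and Ccne2 and -0.90 for Cdkn1a and Cdkn1b. These are descriptions of 8 points that share libraries. Among 10768 to 10769 other genes with a stage mean of at least 10 CPM somewhere, the closest to Ccne1 was Eif1a (0.996), to Ccne2 Slc4a10 (0.992), to Cdkn1a Purb (0.997), to Cdk4 Ranbp1 (0.995) and to Cdk2 Ebp (0.994), followed by Wee1 (0.993), the kinase that inhibits Cdk1 and Cdk2. The next for these were D030056L22Rik and Tor1aip2, Map2 and Trp53inp1, Eva1a and Rasl10a, Sf1 and Atp5md, and Sfi1. Such patterns were common: 278 genes reached r of at least 0.95 with Ccne1, 261 with Ccne2, 659 with Cdkn1a, 654 with Cdk4 and 235 with Cdk2. For Ccnd3 the closest were Ogdh (0.987), Ssrp1 and Khsrp, with 25 genes at or above 0.95, for Cdkn1b Acbd3 (0.988), Ctbp2 and B4galt5, with 135, and for Ccnd1 Cst6 (0.980), Bcl2l2 and Rgcc, with 9. The low Ccnd2 and Cdk6 had 0 and 1 such genes, and their closest were Yipf1 (0.918), Clba1 and Ccdc130, and Higd2a (0.972), Acly and Dcaf12l1.

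In the heavy fractions, whose gradient means were tested in the same way over 24 gradients and 14524 genes, 6 of 70 member tests were called. From zygote to 2-cell embryo Ccne1 and Cdkn1a rose, beside 5.1% of all genes. In that step Cdk2 (1.85, adjusted p = 0.096) was called in edgeR (2.54, adjusted p = 0.036) and after quantile normalization (2.36, adjusted p = 0.025). With medians over fractions Cdk4 (-4.63, adjusted p = 0.0059) and Cdkn1b (-2.41, adjusted p = 0.017) were called lower, against -3.33 (adjusted p = 0.10) and -1.50 (adjusted p = 0.18) with means. From 2 to 4 cells Cdk4 and Ccnd3 rose, beside 15.6%, and Ccne2 fell, beside 22.3%. There Ccne1 was called higher with medians over fractions (2.85, adjusted p = 0.016), against 0.97 (adjusted p = 0.35) with means. Cdkn1b was called lower in edgeR (-5.81, adjusted p = 0.021), against -1.49 (adjusted p = 0.13) in limma. From 8 cells to morula Ccne2 rose, beside 5.42%. In the other 4 steps no member was called by limma with the settings above or by edgeR. In limma 1 member had an unadjusted p under 0.05 from GV to MII (4.06% of genes called either way), 0 from MII to zygote (1.49%), 1 from 4 to 8 cells (6.54%) and 2 from morula to blastocyst (0.0757%). The member from GV to MII was Cdk4, whose heavy gradients stood at 58.3, 64.8 and 55.4 CPM in GV oocytes and at 3.88, 6.23 and 4.75 in MII oocytes, without overlap. Its difference of -3.36 had an adjusted p of 0.24, but of 0.0063 on the compared stages alone, 0.044 after quantile normalization and 0.0094 with medians over fractions, where it was -5.07. Its step from MII to zygote, 2.93, was also called on the compared stages alone (adjusted p = 0.048). With medians over fractions, Ccnd2 (-1.84, adjusted p = 0.0056) and Ccne1 (-2.66, adjusted p = 0.041) were called from GV to MII. Ccnd1 was called from morula to blastocyst with medians (1.54, adjusted p = 0.012) and from 4 to 8 cells after quantile normalization (-2.65, adjusted p = 0.027). Cdk2 was called from 4 to 8 cells without 4-cell gradient C (2.92, adjusted p = 0.012).

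Ccne1 stood at 30.7, 0.676 and 10.7 CPM in the heavy fractions of the 3 zygote gradients and at 114.6, 131 and 136 in those of 2-cell embryos, all above the zygotes, a rise of 3.90 (SE 0.78, adjusted p = 0.001). Cdkn1a stood at 4.75, 6.18 and 0.527 CPM in zygotes and 62.2, 147 and 86.2 in 2-cell embryos, without overlap, a rise of 4.55 (SE 0.58, adjusted p = 8.3e-06). Fitted on the compared stages alone, the adjusted p of Ccne1 was 0.097. Single fractions carried much of these 2-cell means. For Ccne1 the highest fraction was fraction 6 in gradient A (489.8 CPM), 8 in B (428) and 10 in C (521), and it held 85.5%, 65.1% and 76.9% of the heavy sum. For Cdkn1a it was fraction 10 in every gradient, with 63.3%, 68.4% and 44.9%. In blastocysts the highest heavy fraction held 34.7% ± 3.95 (SD, n = 3) of the heavy sum of Ccne1 and 26.1% ± 2.49 of that of Cdkn1a. Over all members, 115 of 300 gene and library pairs were at 0 in 2-cell gradients, 106 in 4-cell and 111 in 8-cell gradients. In GV oocytes 50 were at 0 and in blastocysts 54. These counts include low members: Ccnd1 and Ccnd2 were each at 0 in 27 of 30 fraction libraries of 2-cell embryos. The share of zeros over all genes is not given here, and the part of these zeros in the results was not tested.

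Cdk4 stood at 0.0761, 0 and 81.9 CPM in the heavy fractions of 2-cell embryos and at 5.44, 695 and 765 in those of 4-cell embryos, so that 1 gradient stood apart from its group in each stage and the groups overlapped. The rise was 5.08 (SE 1.41, adjusted p = 0.0067), and on the compared stages alone its adjusted p was 0.31. Cdk4 was at 0 in 16 of the 30 fraction libraries of 2-cell embryos, and the 81.9 CPM of gradient C rested on fraction 6, at 330.2 CPM. Ccnd3 stood at 1.71, 150.2 and 283 CPM and then 176, 535 and 479, a step of 2.87 (SE 1.02, adjusted p = 0.030). Without 2-cell gradient A the change was 0.79 with an adjusted p of 0.22. The call was also lost without 4-cell gradient B or C (adjusted p 0.089 and 0.080) and on the compared stages alone (adjusted p = 0.42). Nor did it pass in edgeR (1.60, adjusted p = 0.14) or with medians over fractions (2.01, adjusted p = 0.38). Ccne2 fell by 4.09 (SE 0.62, adjusted p = 1.8e-05) from 10.4, 33.9 and 32.7 CPM to 0, 0.203 and 1.29, without overlap, though on the compared stages alone its adjusted p was 0.071. Its later rise, from 0.259, 0.396 and 0.0600 CPM in 8-cell embryos to 5.05, 1.56 and 7.39 in morulae (2.04, SE 0.62, adjusted p = 0.044), did not overlap either but was lost in 5 of the 6 fits that left out a gradient of these stages, with adjusted p of 0.070 to 0.20, and was 0.46 when the median over the fractions took the place of the mean.

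**Figure D3:**
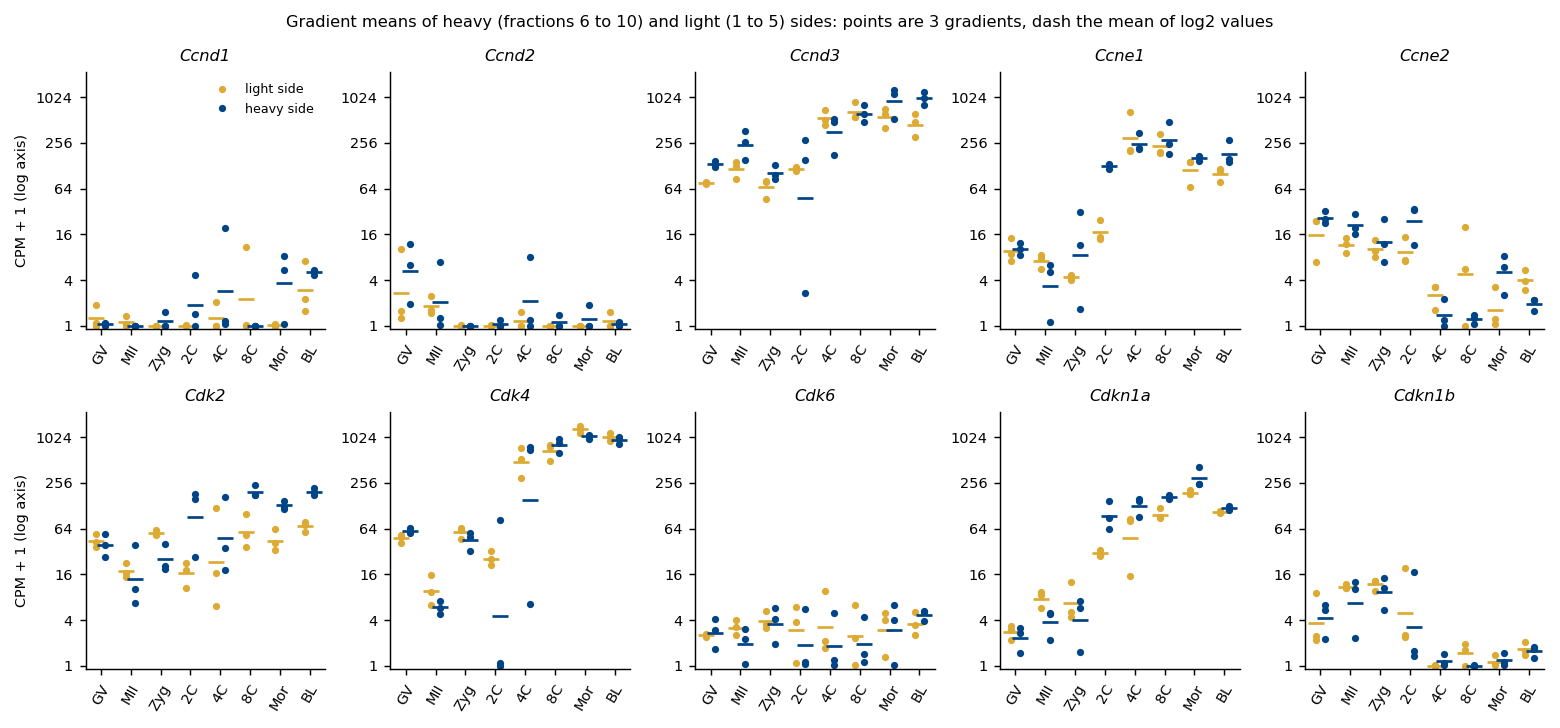
Gradient means over heavy (fractions 6 to 10, blue) and light (1 to 5, yellow) fractions of each member at the 8 stages, as CPM + 1 on a log axis; points are 3 gradients and dashes the mean of the log2 values. In 2-cell embryos the heavy points of Ccne1, Cdk2 and Cdkn1a all lie above the light points, and the heavy points of Cdk4 lie at 0, 0.0761 and 81.9 CPM.

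Heavy and light fractions of a stage were compared over 48 gradient means and 15172 genes. In 2-cell embryos 3 members were higher in the heavy fractions, beside 6.43% of genes. Ccne1 stood at 114.6, 131 and 136 CPM in heavy and 12.8, 24.1 and 13.9 in light fractions, a difference of 2.88 (SE 0.65, adjusted p = 0.0014). Cdk2 stood at 179, 25.8 and 155 against 17.4, 9.64 and 21.9 CPM, a difference of 2.46 (SE 0.74, adjusted p = 0.017), and in gradient B 98.3% of its heavy sum was in fraction 9. Cdkn1a stood at 62.2, 147 and 86.2 against 32.5, 28.1 and 27.3 CPM, a difference of 1.63 (SE 0.55, adjusted p = 0.033) that was 0.87 with medians over fractions. All 3 sets of heavy values lay above the light ones. On the 2-cell gradients alone the adjusted p was 0.063 for Ccne1, 0.25 for Cdk2 and 0.12 for Cdkn1a. Without gradient A, B or C 1 or more of the calls on Cdk2 and Cdkn1a were lost (adjusted p 0.079 to 0.21). Cdkn1a was not called in edgeR (adjusted p = 0.079) or against light fractions 1 and 2 (adjusted p = 0.57). Nor was Ccne1 with heavy fractions 7 to 10 against light 1 to 4 (adjusted p = 0.055). Cdk4 was lower in heavy fractions (-2.53, adjusted p = 0.093), and called with a pseudocount of 0.1 (-4.46, adjusted p = 0.013). Without gradient C Cdk4 (-4.79, adjusted p = 0.00088) and Ccnd3 (-2.59, adjusted p = 0.027) were called lower.

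At the other stages no member passed in limma with the settings above. Ccne1 was called in MII oocytes with medians over fractions (-2.36, adjusted p = 0.024). In 4-cell embryos Ccnd1 was called after quantile normalization (2.22, adjusted p = 0.023) and Cdkn1a without gradient B (2.06, adjusted p = 0.028). On the stage's own gradients alone Cdk2 was called in morulae (1.55, adjusted p = 0.040) and blastocysts (1.52, adjusted p = 0.0074), and against light fractions 1 and 2 in 8-cell embryos (3.31, adjusted p = 0.011). The members at an unadjusted p under 0.05 numbered 0 in GV oocytes (0.0725% of genes called either way), 0 in MII oocytes (3.23%), 0 in zygotes (3.01%), 1 in 4-cell embryos (16.3%), 2 in 8-cell embryos (9.05%), 3 in morulae (5.81%) and 1 in blastocysts (2.74%). edgeR called 1 member there, Cdkn1a in 4-cell embryos (2.13, adjusted p = 0.035). Heavy and light means come from the same gradients, and with the gradient as a block Cdk2 was also called in 8-cell embryos (1.76, adjusted p = 0.026, against 0.15 without the block). The 8-cell values of Cdk2 were 174.5, 239.5 and 175.1 CPM in heavy and 98.1, 35.9 and 51.7 in light fractions, and its heavy values also lay above all light ones in morulae (115, 147 and 124 against 32.1, 40.8 and 61.3) and blastocysts (178, 217 and 195 against 56.5, 77.4 and 70.6). In zygotes the order of Cdk2 was opposite, with 19.5, 39.8 and 18.1 CPM in heavy and 52.9, 59.6 and 51.5 in light fractions. Cdkn1a had all heavy values above all light ones in each stage from 2-cell embryo to blastocyst, with blastocysts closest (112, 128 and 117 against 103, 108 and 106 CPM). In morulae Cdk4 had all light values, 1325, 1412 and 1164 CPM, above all heavy ones, 1090.5, 1071 and 969.9, while in GV oocytes its heavy values, 58.3, 64.8 and 55.4, lay above the light ones, 52.0, 40.9 and 47.9. Light values also lay above heavy ones for Cdkn1a in MII oocytes (8.26, 7.55 and 4.74 against 3.87, 4.01 and 1.21 CPM) and for Ccne2 in blastocysts (4.44, 2.87 and 1.97 against 1.23, 1.21 and 0.551). Heavy values lay above light ones for Ccne2 in MII oocytes and for Ccne1 in morulae and blastocysts as well. Ccnd3 had all heavy values above all light ones in GV oocytes (132, 122 and 145 against 75.8, 72.7 and 77.3 CPM), MII oocytes, zygotes and blastocysts (983, 1199 and 805 against 304, 615 and 476). Heavy and light values of the low members Ccnd1, Ccnd2, Cdk6 and Cdkn1b overlapped at all 8 stages. The share of all genes whose heavy and light values lie apart is not given here. These orders therefore describe the values and do not set the members apart from other genes.

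Whether the heavy-to-light difference itself changed between consecutive stages was tested over the same means. Cdk2 moved towards the heavy side from zygote to 2-cell embryo by 3.61 (SE 1.05, adjusted p = 0.039), beside 1.73% of genes called in that direction. Ccne1 moved towards the light side from 2 to 4 cells by -3.14 (SE 0.92, adjusted p = 0.020), beside 7.22%. In 4-cell embryos Ccne1 stood at 209, 219 and 341 CPM in heavy and 201, 205 and 646 in light fractions, with overlap. Both calls were lost on the compared stages alone (adjusted p 0.10 for Cdk2 and 0.088 for Ccne1) and without single gradients: adjusted p was 0.073 to 0.14 for Cdk2 without any 1 of the zygote gradients or without 2-cell gradient A or C, and 0.055 and 0.053 for Ccne1 without 2-cell or 4-cell gradient C.

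Whether the heavy fractions changed by more or less than the transcriptome was tested as an interaction over 56 samples and 15165 genes, and 8 of 70 member tests were called. Ccne1 was lower in this measure from GV to MII, by -2.49 (SE 0.71, adjusted p = 0.017), beside 1.27% of genes, and higher from MII to zygote, by 2.72 (SE 0.71, adjusted p = 0.024), beside 0.93%. In the heavy fractions its gradients stood at 7.46, 9.41 and 11.2 CPM in GV oocytes and at 4.12, 5.41 and 0.134 in MII oocytes, and without the last gradient the adjusted p was 0.15 for the first step and 0.16 for the second, which was also lost without zygote gradient A (0.18) or C (0.073). From zygote to 2-cell embryo Cdkn1a was higher by 1.57 (SE 0.54, adjusted p = 0.024), beside 1.58%, though by 0.88 without zygote gradient C and 1.24 without 2-cell gradient B, neither called, and Cdk4 lower by -5.05 (SE 1.26, adjusted p = 0.0021), beside 26%. Cdk4 was at 55.0, 48.9 and 31.4 CPM in zygote heavy fractions and near 0 in 2 of the 3 2-cell gradients while its transcriptome level rose, and edgeR gave -2.48 with an adjusted p of 0.22. The median of all genes in this step was -0.89, and 0.04 after quantile normalization, so these values are read against it.

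From 2 to 4 cells Cdkn1a (-1.74, SE 0.54, adjusted p = 0.011) and Cdk2 (-1.93, SE 0.69, adjusted p = 0.027) were lower in the heavy fractions relative to the transcriptome, beside 18% of genes. Neither was called in edgeR (adjusted p 0.34 and 0.096), and that of Cdk2 was also lost without 2-cell gradient A or C or 4-cell gradient A or B (adjusted p 0.063 to 0.15). From 4 to 8 cells Cdk2 was higher by 2.04 (SE 0.69, adjusted p = 0.039), beside 12%; with the letter of the gradient as a replicate block the adjusted p was 0.056, quantile normalization gave 1.38 (adjusted p = 0.15), edgeR 1.00 (adjusted p = 0.32), and without 4-cell gradient A the change was 1.35 (adjusted p = 0.21). From 8 cells to morula Ccne2 was higher by 2.00 (SE 0.57, adjusted p = 0.024), beside 3.97%, and by 0.42 with medians over fractions and 1.63 (adjusted p = 0.11) without morula gradient C. From morula to blastocyst no member was called by limma or edgeR or had an unadjusted p under 0.05, beside 2.2% called either way. These steps share stages: the 2-cell heavy values of Cdk2, 179, 25.8 and 155 CPM, and its 4-cell values, 17.5, 34.7 and 166, enter successive steps.

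**Figure D4:**
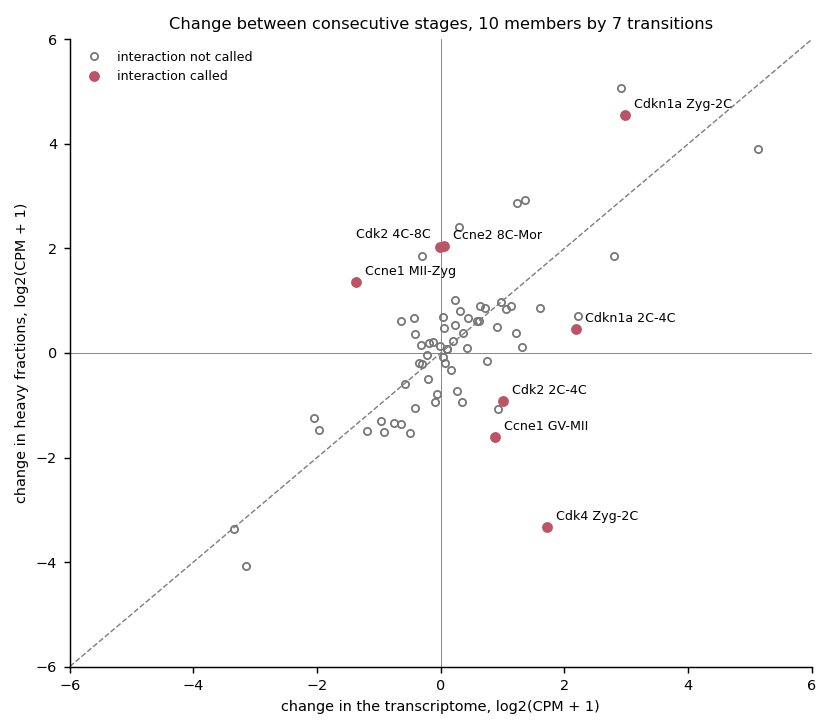
Change of each member between consecutive stages in the heavy fractions (vertical axis) against its change in the transcriptome (horizontal axis), both in log2(CPM + 1); each of 70 points is 1 member in 1 step, the dashed line marks equal change, and filled points are the 8 called interactions. Cdk4 from zygote to 2-cell embryo lies farthest below the line, at a rise of 1.72 in the transcriptome.

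Along the gradient, Cdk4 and Cdk2 differed in position in morulae and blastocysts. The centre of a gene is its mean fraction number weighted by CPM. Each fraction is scaled to its own total, so all fractions weigh equally whatever RNA they held. Centres and percentages of summed CPM are therefore not shares of a gene's transcripts. In morulae the centre of Cdk4 was 5.23, 5.22 and 5.25 in the 3 gradients and that of Cdk2 was 7.70, 7.58 and 6.94. In blastocysts they were 5.42, 5.32 and 5.34 against 7.26, 7.16 and 6.82. The 2 kinases did not overlap, and the median centre of all genes was 5.69 and 5.36 at these stages. Cdk4 reached its highest mean in fraction 3, at 1856 CPM in morulae, and Cdk2 in fraction 10, at 229 CPM. Cdk2 had moved: its centre was 4.00, 5.12 and 4.64 in zygotes and 7.49, 7.30 and 7.09 in 2-cell embryos, a stage whose median over all genes was 5.02. Ccne1 in 2-cell embryos had 89.9%, 84.5% and 90.7% of its summed CPM in heavy fractions, against 51.0%, 51.7% and 34.5% in 4-cell embryos. Ccnd3 was spread from 1.43% to 72.1% heavy over the 2-cell gradients and lay between 62.7% and 65.3% in GV oocytes.

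**Figure D5:**
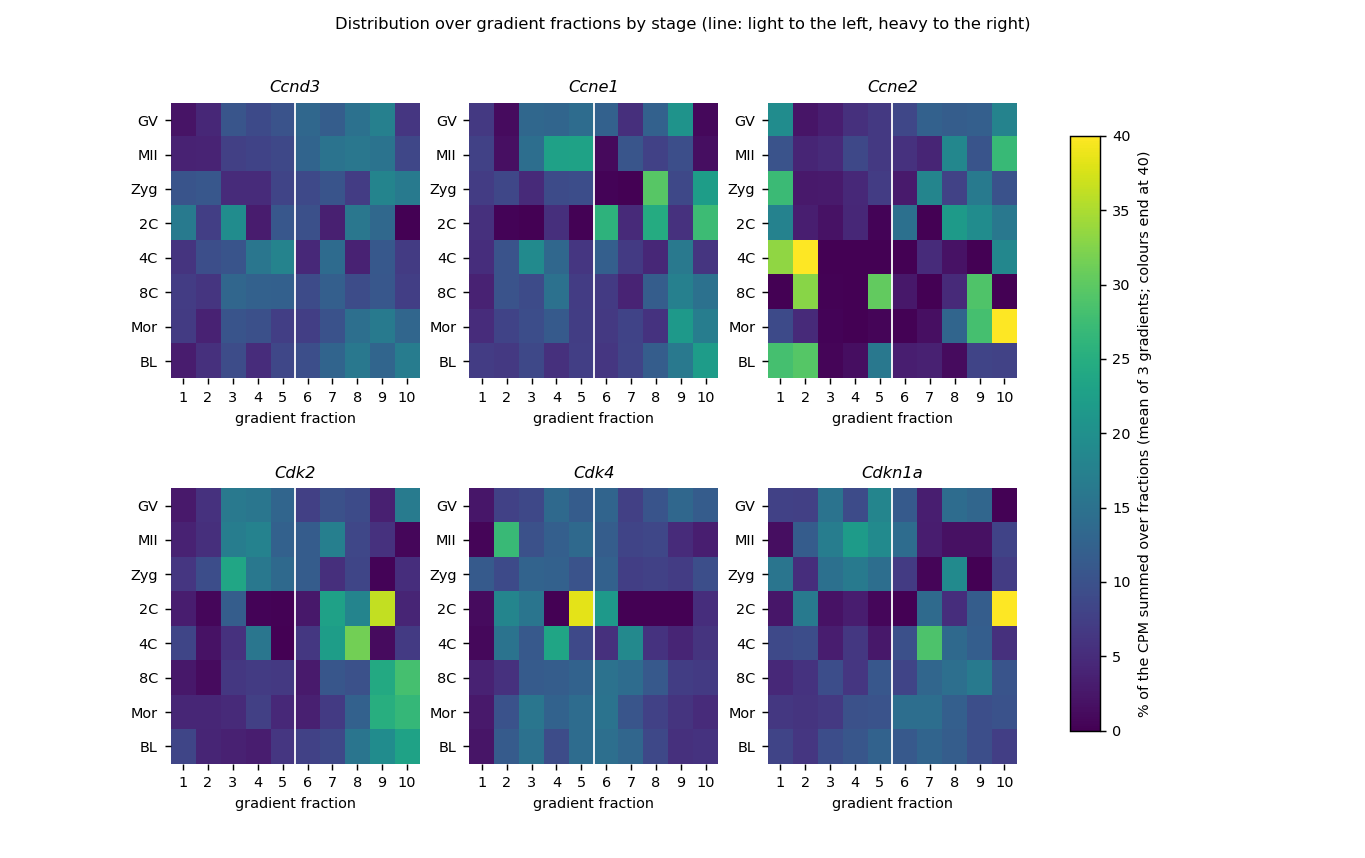
Share of the CPM summed over the 10 fractions (colour, %, mean of 3 gradients, colours end at 40%) for 6 members, with stages as rows and fractions 1 to 10 as columns; the white line parts light from heavy fractions. Cdk2 lies in the heaviest fractions from the 8-cell stage on, Cdk4 lies in the middle of the gradient in the same stages, and the 2-cell and 4-cell rows are patchy.

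The members also differed between kinds of library. Where the transcriptome and heavy means were both at least 5 CPM, the heavy mean of Ccnd3 was 8.17 to 19.7 times its transcriptome mean, that of Cdk4 2.83 to 8.56 times, that of Cdk2 1.90 to 6.95 times and that of Cdkn1a 1.29 to 4.75 times. That of Ccne1 was 0.933 to 1.67 times its transcriptome mean, and Ccne2 was lower in heavy fractions, with 2.19 to 6.66 times more in the transcriptome. The median over all genes was 0.889 to 1.12. The light means of Ccnd3 and Cdk4 also lay above the transcriptome and those of Ccne2 below it. In morulae Cdk4 stood at 1300 CPM in light and 1044 in heavy fractions against 124 in the transcriptome. In zygotes Ccne2 stood at 9.44 and 13.8 CPM against 77.6. Transcriptome and fraction libraries were amplified by different Smart-seq protocols and scaled to their own totals, and the part of the protocol in these ratios was not tested.

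The other genes of the pathway were taken from 9 lists, of which 63 of 67 genes were in the table and tested. From 2 to 4 cells, while Cdk4 and Cdkn1a rose, 22 of the 63 were higher and 17 lower in the transcriptome, beside 31.8% and 32.9% of all genes, with a median change of 0.44 against 0.02 for all genes. Of 15 S-phase entry genes 10 were higher in the transcriptome, with a median of 1.57. In the heavy fractions 1 was higher and 2 were lower, beside 15.6% and 22.3% of all genes. The list median there was -0.83 against -0.06 for all genes. Among the 10 were Tyms (16.4 ± 3.52 to 312 ± 20.8 CPM, change 4.19), which makes thymidylate, and the ribonucleotide reductase subunit Rrm1 (8.94 ± 3.52 to 107 ± 14.9 CPM, change 3.51). Of the 3 pocket proteins, the targets of these kinases, 2 were lower: Rb1 went from 149.5 ± 28.4 to 14.4 ± 6.78 CPM and Rbl1 from 60.1 ± 8.97 to 5.53 ± 3.62. Of 10 E2F and DP factors 6 were lower, with E2f5 going from 1052 ± 110.8 to 34.9 ± 6.76 CPM, and E2f6 was higher (1.04 ± 0.608 to 25.7 ± 11.7). Of 4 genes of CDK activation 3 were higher, among them the phosphatase Cdc25a (9.92 ± 3.30 to 100.8 ± 27.2 CPM), which removes inhibitory phosphates from CDKs.

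From zygote to 2-cell embryo, when 6 members rose, 16 of the 63 were higher and 6 lower, beside 25.2% and 8.71% of all genes, with a median of 0.37 that equalled that of all genes to 2 decimals. The INK4 inhibitors of Cdk4 and Cdk6 were among the higher ones: Cdkn2d went from 1.28 ± 0.541 to 35.6 ± 5.57 CPM (change 4.02) and Cdkn2c from 0.602 ± 0.570 to 12.6 ± 1.74 (3.14). Of 10 E2F and DP factors 5 were higher, with E2f1 going from 15.3 ± 3.74 to 52.9 ± 19.7 CPM. Cdk1 and Ccna2, the kinase and cyclin of later phases, were higher too (46.6 ± 4.78 to 241 ± 29.6 and 181 ± 12.9 to 456 ± 94.0 CPM). In the heavy fractions of the same step 9 of the 15 S-phase entry genes were lower, beside 15.7% of all genes, with a list median of -2.30 against -0.51 for all genes. From GV to MII, when Cdk2 and Cdk4 fell, 14 were higher and 11 lower, beside 9.11% and 25.3% of all genes. The median change of the 63 was 0.19 against -0.11 for all genes. Among the 14 higher ones, E2f4 went from 73.3 ± 2.87 to 203 ± 59.4 CPM and Ccna2 from 118 ± 13.3 to 263 ± 27.4. Among the 11 lower ones, Tyms went from 339 ± 18.0 to 15.1 ± 1.72 CPM and Cdk1 from 256 ± 5.70 to 25.5 ± 8.86. From 8 cells to morula, when Cdkn1a rose, 3 of 8 genes of the p53 arm were higher in the transcriptome, beside 8.18% of all genes, and 0 were higher and 1 was lower in the heavy fractions, beside 5.42% and 2.56%. Among the 3 were Trp53 (14.4 ± 4.02 to 68.1 ± 7.99 CPM) and its target Ccng1 (11.6 ± 2.71 to 81.2 ± 35.0). From morula to blastocyst 10 of the 63 were higher and 4 lower, beside 18.8% and 7.97% of all genes, among them E2f1, which rose from 5.17 ± 2.48 to 18.6 ± 4.12 CPM, and the mitotic cyclin Ccnb1, which fell from 1473 ± 489 to 309 ± 43.1.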

How the data were processed

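The deposited CPM values were used for 10 genes in 32 transcriptomes and 240 gradient fractions of mouse oocytes and embryos. Per the submitters' processing notes the authors used Trim Galore 0.6.7, FastQC, HISAT2 2.2.1, featureCounts 2.0.1 and edgeR with the genome build GRCm39. The role and order of these tools, the strand setting and the handling of reads that match several places are not given in the sources used here, so reads shared with pseudogenes or antisense genes cannot be told apart. Of the deposited columns 38 sum to slightly over the nominal total of CPM; 9 of these, though CPM in kind, were recorded as a deposited signal. Each value was a whole number of reads within 0.05 reads in all 272 libraries. Of 15854 symbols, 159 in 76 groups with identical values were collapsed, which left 15771. The 2-cell transcriptome columns are lettered differently from the labels (E to H, not A to D), and they were used as replicates of the group.

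Changes were fitted with limma 3.58.1 in R 4.3.3 on log2(CPM + 1), with a trend in the variance and Benjamini-Hochberg adjustment over all genes with at least 1 CPM in 4 transcriptome or 3 other samples; all 10 members passed. All stages shared 1 estimate of the spread. A heavy or light value is the mean CPM of 5 fractions in 1 gradient. Alternatives were other pseudocounts, filters, normalization and fractions, fits on the compared stages alone, edgeR 4.0.16 on the recovered reads, a replicate block and leaving out each library or gradient. The comparison of heavy-to-light differences between stages and the medians over fractions were added after seeing the data. The fit was tested on simulated data. Library letters did not pair stages (median r of deviations at most 0.032 for any letter in the transcriptomes). Heavy and light values of 1 gradient pair by construction (24 pairs, median r 0.0973).

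All members are named in every comparison, with at most 2 called genes of a pathway list with the largest change, and the 3 genes closest to each member over the stage means, among genes with at least 10 CPM in some stage. The members and lists were chosen with earlier results of these data known. Exon lengths came from GENCODE M21 on GRCm38, not the authors' annotation. Cdkn2a, Ccna1, Skp1a and Fbxo4 were not analysed here.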

Additional observations from a re-analysis of the deposited data

Results flagged for a closer look

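In 8 of the 80 groups of 4 transcriptomes checked, 1 library of a member stood apart from the other 3 by a gap that exceeds Dixon's critical value. Chance gives about 1 such group in 20 where values are independent and normally distributed. These groups share libraries, and a group whose other libraries all stand at 0 is flagged whatever the remaining value. Among the E-type cyclins, an MII library of Ccne2 stood at 51.4 CPM against 68.1 to 69.7 in the others, and a morula library at 12.5 against 22.3 to 23.7. Among the kinases, a 4-cell library of Cdk2 stood at 30.0 CPM against 40.6 to 41.5, the same 4-cell library of Cdk4 at 57.6 against 83.5 to 87.7, and a blastocyst library of Cdk4 at 253.9 against 185.4 to 191.2. For the low genes, a GV library of Ccnd2 stood at 1.84 CPM against 1.12 to 1.24, a zygote library of Ccnd2 at 0.148 with the others at 0, and an 8-cell library of Cdkn1b at 0.231 with the others at 0.

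The difference between heavy and light fractions was itself tested between consecutive stages, and limma called it for Cdk2 from zygote to 2-cell embryo (3.61) and for Ccne1 from 2 to 4 cells (-3.14).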

How the results depend on the processing

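The direction of every called member change was the same under each alternative run. In the transcriptome 21 of 70 member tests were called, 33 without a minimum change and 23 in edgeR. In the heavy fractions 6 were called, 3 when fitted on the compared stages alone and 11 with medians over fractions. Beyond the transcriptome 8 were called, and 3 on the compared stages alone. For heavy-to-light differences between stages 2 were called, 1 with a pseudocount of 0.1, 0 on the compared stages alone, 5 in edgeR, 1 with heavy fractions 7 to 10 and light 1 to 4, and 0 with light fractions 1 and 2. Leaving out each library or gradient gave 19 to 23 calls in the transcriptome, 5 to 8 in heavy fractions, 2 to 4 for heavy against light, 6 to 12 beyond the transcriptome and 1 to 3 for differences between stages.

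Values that turned sign and passed were 3, none called in the first place: Cdkn1b beyond the transcriptome from zygote to 2-cell embryo was 2.04 after quantile normalization (-0.58 before), Ccne1 beyond the transcriptome from 2 to 4 cells 1.87 with medians (-0.01 before), and Ccnd1 in the heavy-to-light difference from morula to blastocyst 1.48 with medians (-1.03 before). The cause was not tested. The replicate block gave 9 calls in the transcriptome and 3 beyond it, both over the 50 tests without 2-cell embryos, 6 in heavy fractions, 4 for heavy against light and 2 for differences between stages; the letters did not pair stages. Among called genes, the share that was higher moved with quantile normalization from 74.3% to 46.4% in the transcriptome step from zygote to 2-cell embryo, from 26.4% to 55.6% from GV to MII and, in heavy fractions, from 24.5% to 50.8% from zygote to 2-cell embryo. Depth limits Ccnd2, Cdk6, Ccnd1 in oocytes, Cdk4 in MII oocytes and Cdkn1b from 4-cell embryo to morula, which rest on few reads.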
